A study of Mus musculus with 18 samples.

Results

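The genes described here are 10 members of the CC chemokine system that guides monocytes: the ligand genes Ccl2, Ccl3, Ccl4, Ccl6, Ccl7, Ccl8, Ccl9 and Ccl12 and the receptor genes Ccr1 and Ccr2. They were listed by name, with no threshold on a measured value but with earlier results of these data known, and all 10 were found among the 41079 genes of the deposited expression table. Levels are given in FPKM, fragments scaled by gene length and by the fragments assigned to genes in the tumor. A comparison between genes of unequal length therefore rests on the 1 length deposited for each gene. Of the 10 members, 8 averaged 1 FPKM or more over all tumors and entered the tests across genes, and Ccr1 and Ccr2 did not.

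The tumors were grown from B16F10, a mouse melanoma cell line, under the skin of female C57BL/6 mice. Treatment began on day 6, at a tumor volume of about 50 mm3, and was injected into the tumor every 2 days. Tumors were taken 48 h after the last injection. The 18 tumors fell into 6 groups of 3. Tumors of the PBS group received buffer alone. Free PS473 is a pistol ribozyme, a small RNA that cuts RNA, designed against the messenger of PD-L1 (gene Cd274), given without a carrier. PS473@CPs is the same ribozyme carried by cationic polymers. NKMOF-101-[Mn] is a manganese metal-organic framework given empty, M5@NKMOF-101-[Mn] carries a mutant ribozyme without catalytic activity, and PS473@NKMOF-101-[Mn] carries the active ribozyme. All groups share the same cell line, host strain and route of injection, and a single cell line stands for the tumor in each. Whether the 3 tumors of a group came from separately handled batches of mice is not given in the sources used here, and p values measure the spread between these tumors.

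CC chemokines are small secreted proteins that bind G protein-coupled receptors on leukocytes and steer their migration. Ccr2 carries inflammatory monocytes out of the bone marrow and into tissue along gradients of Ccl2, Ccl7 and Ccl12, and Ccr1 is a receptor of Ccl3, Ccl6, Ccl7 and Ccl9 on monocytes, macrophages and neutrophils. In tumors the ligands are made by macrophages, by stromal cells and by tumor cells, and monocytes recruited through Ccr2 become tumor-associated macrophages. In whole tumors, fewer cells of a type and less RNA per cell cannot be told apart.

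The 8 ligand genes lie on mouse chromosome 11 in 2 runs (GENCODE M21 annotation, GRCm38). Ccl2 (82035571 to 82037453), Ccl7 (82045712 to 82047525), Ccl12 (82101845 to 82103400) and Ccl8 (82115185 to 82116799) follow each other on the plus strand. Ccl9 (83572919 to 83578636), Ccl6 (83587882 to 83593087) and Ccl3 (83647844 to 83649355) lie on the minus strand, followed by Ccl4 (83662584 to 83664683) on the plus strand. Ccr1 (123962124 to 123968692, minus strand) and Ccr2 (124101950 to 124113557, plus strand) lie on chromosome 9. The submitters' processing notes name build GRCm39, so the FPKM values were joined to these places by gene symbol only.

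Ccl6 and Ccl9, neighbours on the minus strand, also held the longest run of identical bases between any 2 of the 7 member promoters in the RefSeq table (GRCm38.p6), and the 250 bases before their start sites are shown for this reason. Both are written 5′ to 3′ on the strand of the gene, with the runs of at least 10 bases that the pair shares in capitals. The Ccl6 stretch is chr11:83593088-83593337 and the Ccl9 stretch is chr11:83578637-83578886, both on the minus strand.
Ccl6: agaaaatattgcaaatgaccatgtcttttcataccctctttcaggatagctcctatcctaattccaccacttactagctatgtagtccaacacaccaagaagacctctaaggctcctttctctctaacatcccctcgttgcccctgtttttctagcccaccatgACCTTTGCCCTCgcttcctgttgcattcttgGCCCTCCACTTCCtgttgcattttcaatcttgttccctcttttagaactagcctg
Ccl9: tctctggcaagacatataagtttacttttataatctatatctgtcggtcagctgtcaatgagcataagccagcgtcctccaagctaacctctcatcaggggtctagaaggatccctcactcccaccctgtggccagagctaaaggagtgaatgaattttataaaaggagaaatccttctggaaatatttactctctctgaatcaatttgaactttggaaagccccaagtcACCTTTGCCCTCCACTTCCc
In Ccl6 the shared letters form a run of 12 bases from position -86 and a run of 13 bases from position -55, counted back from the start site. In Ccl9 the same letters overlap in 1 run of 19 bases from position -20. The longest identical run was 7 to 9 bases in the other promoter pairs, of 21 pairs in all. Over the 300 bases around the start (250 before and 50 after), searched on both strands, the NF-kB consensus matched the promoters of Ccr1 and Ccl9, which is 2 of 7, against 8.46% of 32851 promoters. The letters TGANTCA matched that of Ccl9 (7.81% of all promoters) and the letters GAGGAAG that of Ccl8 (13.6%). The NF-kB and TGANTCA matches of Ccl9 did not overlap. These matches describe letters only. Promoters of Ccl2, Ccl4 and Ccl7 were not analysed here.

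The ribozyme's target, Cd274, was measured at 12.3 to 21.5 FPKM in the PBS tumors, 11.7 to 14.0 in Free PS473, 11.9 to 24.5 in PS473@CPs, 14.1 to 15.9 in NKMOF-101-[Mn], 21.0 to 28.2 in M5@NKMOF-101-[Mn] and 9.74 to 32.9 in PS473@NKMOF-101-[Mn]. It did not pass the test in any comparison between groups (limma, adjusted p from 0.900 to 1.00). Melanocyte markers were high in every tumor (mean log2(FPKM + 1) of 11 genes, called a score here, between 7.31 and 8.19). Monocyte and macrophage markers were present in all, with a score over 20 genes from 1.78 in Free PS473 tumor 2 to 3.95 in NKMOF-101-[Mn] tumor 1. Skin epithelium markers were uneven: their score over 15 genes was above 3 in 7 tumors, namely PBS tumors 2 and 3, tumor 2 of PS473@NKMOF-101-[Mn], tumor 2 of PS473@CPs, tumor 3 of M5@NKMOF-101-[Mn], tumor 3 of Free PS473 and tumor 1 of NKMOF-101-[Mn], and was as low as 0.37 elsewhere. Of 12 neutrophil markers, 2 passed the filter, S100a8 and S100a9, which skin epithelium also makes, and Ly6g was at 0 in all tumors. The fragments assigned to genes numbered from 17195000 to 28372000 per tumor, which puts between 5.24 fragments (Ccl3 in Free PS473 tumor 2) and 774 fragments (Ccl6 in Free PS473 tumor 3) behind a member's value.

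Ccl8 had the highest mean level over the 18 tumors, 16.4 FPKM, followed by Ccl2 at 12.2, Ccl7 at 10.3, Ccl6 at 8.02, Ccl4 at 3.97, Ccl12 at 3.26, Ccl9 at 3.08, Ccl3 at 2.40, Ccr1 at 0.944 and Ccr2 at 0.584 FPKM. Neighbours in this order were compared tumor by tumor, with 9 pairs in the family and Benjamini-Hochberg adjustment. Ccl2 lay above Ccl7 in 16 of 18 tumors (mean log2 ratio 0.29 ± 0.28 SD, p = 0.0002, adjusted p = 0.0009, two-sided permutation test), Ccl6 above Ccl4 in 15 (0.97 ± 1.07, adjusted p = 0.0045, permutation test), Ccl3 above Ccr1 in 17 (1.36 ± 0.99, adjusted p = 0.00036, permutation test) and Ccr1 above Ccr2 in 13 (0.62 ± 0.97, adjusted p = 0.0391, permutation test). The other 5 neighbouring pairs did not pass, with adjusted p from 0.0768 for Ccl7 and Ccl6 and for Ccl9 and Ccl3 to 0.433 for Ccl8 and Ccl2. The order depends on the deposited gene lengths, which the tests take as given. The length of Ccr2 was 7504 bases and that of Ccl2 806, where their longest GENCODE M21 transcripts have 5728 and 1096 bases. Whether the order holds with other lengths was not tested.

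**Figure D1:**
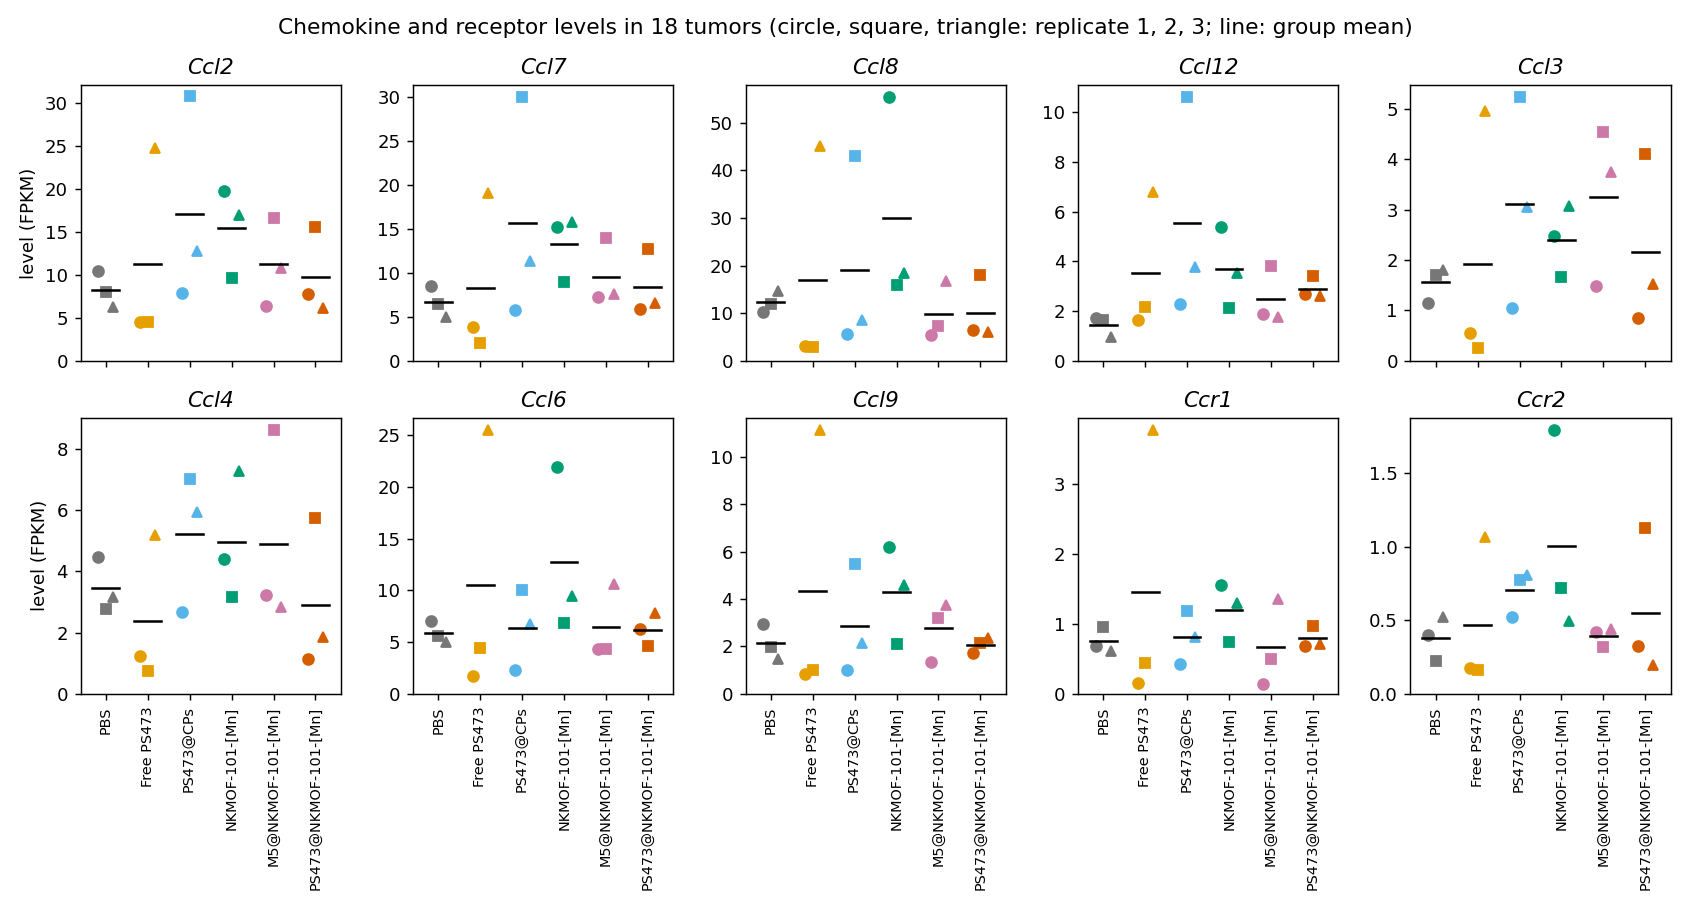
Level of each member in every tumor (vertical axes, FPKM, linear and starting at 0, 1 scale per gene) by treatment group, with circle, square and triangle for replicates 1, 2 and 3 and a line for the group mean of 3 tumors. For Ccl2, Free PS473 tumor 3 (24.8 FPKM) and PS473@CPs tumor 2 (30.7 FPKM) lie above the other tumors of their groups.

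Ccl2, the principal ligand of Ccr2, was measured at 10.5, 8.02 and 6.29 FPKM in the PBS tumors and at 7.71, 15.5 and 6.10 FPKM in the PS473@NKMOF-101-[Mn] tumors. The other groups gave 4.50, 4.57 and 24.8 FPKM in Free PS473, 7.84, 30.7 and 12.7 in PS473@CPs, 19.7, 9.57 and 16.9 in NKMOF-101-[Mn], and 6.42, 16.6 and 10.8 in M5@NKMOF-101-[Mn]. Every pair of groups overlapped, and the lowest tumor, 6.82-fold below the highest, was in Free PS473, which also held the second highest. Group means ran from 8.26 ± 2.10 FPKM in PBS to 17.1 ± 12.1 FPKM in PS473@CPs (SD, n = 3).

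Ccl7, which acts through Ccr2 and Ccr1, showed nearly the same order of tumors. It reached 8.54, 6.46 and 4.96 FPKM in PBS, 3.82, 2.04 and 19.1 in Free PS473, 5.73, 29.9 and 11.3 in PS473@CPs, 15.2, 8.96 and 15.8 in NKMOF-101-[Mn], 7.22, 13.9 and 7.59 in M5@NKMOF-101-[Mn] and 5.86, 12.7 and 6.54 in PS473@NKMOF-101-[Mn]. The 3 NKMOF-101-[Mn] tumors lay above the 3 PBS tumors, a comparison in which 6.02% of all genes tested stood apart in either direction. PS473@NKMOF-101-[Mn] overlapped with each other group.

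Ccl8, a monocyte chemoattractant that in the mouse is best known as a ligand of Ccr8, spread most among the ligands within groups (within-group SD 1.18 on the log2(FPKM + 1) scale, against 0.60 to 0.90 for the other 7 ligands). It was measured at 10.2, 12.0 and 14.6 FPKM in PBS, 3.11, 2.90 and 45.2 in Free PS473, 5.73, 43.1 and 8.54 in PS473@CPs, 55.3, 16.0 and 18.4 in NKMOF-101-[Mn], 5.51, 7.25 and 16.7 in M5@NKMOF-101-[Mn] and 6.50, 17.9 and 6.03 in PS473@NKMOF-101-[Mn]. The 3 highest values came from 3 different groups, and each of these tumors had a skin score above 3.

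Ccl12, a further Ccr2 ligand, was lowest in the buffer group. Its level was 1.72, 1.63 and 0.951 FPKM in PBS, 1.62, 2.18 and 6.79 in Free PS473, 2.27, 10.6 and 3.78 in PS473@CPs, 5.40, 2.14 and 3.52 in NKMOF-101-[Mn], 1.90, 3.80 and 1.74 in M5@NKMOF-101-[Mn] and 2.68, 3.42 and 2.60 in PS473@NKMOF-101-[Mn]. Every tumor of 4 of the 5 treated groups lay above the 3 PBS tumors, the exception being Free PS473, whose tumor 1 fell among them. These 4 comparisons use the same PBS tumors, and 4.66% to 8.11% of all genes tested stood apart in them, in either direction. In M5@NKMOF-101-[Mn] the separation was narrow: its tumor 3 and PBS tumor 1 both rest on about 18.5 fragments and differ only by depth.

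Ccl3 and Ccl4, the macrophage inflammatory proteins, which attract monocytes and other leukocytes, were less abundant. Ccl3 was measured at 1.15, 1.70 and 1.81 FPKM in PBS, 0.551, 0.259 and 4.95 in Free PS473, 1.05, 5.22 and 3.05 in PS473@CPs, 2.48, 1.67 and 3.06 in NKMOF-101-[Mn], 1.49, 4.55 and 3.74 in M5@NKMOF-101-[Mn] and 0.843, 4.10 and 1.53 in PS473@NKMOF-101-[Mn]. Ccl4 was measured at 4.46, 2.76 and 3.17 FPKM in PBS, 1.24, 0.738 and 5.19 in Free PS473, 2.67, 7.01 and 5.95 in PS473@CPs, 4.42, 3.17 and 7.29 in NKMOF-101-[Mn], 3.21, 8.63 and 2.83 in M5@NKMOF-101-[Mn] and 1.12, 5.73 and 1.85 in PS473@NKMOF-101-[Mn]. Within the PS473@NKMOF-101-[Mn] group both were highest in tumor 2, and no group stood apart from PBS in either gene.

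Ccl6 and Ccl9, rodent ligands of Ccr1, shared their highest tumor. Ccl6 was measured at 7.04, 5.55 and 5.04 FPKM in PBS, 1.70, 4.40 and 25.5 in Free PS473, 2.31, 9.99 and 6.71 in PS473@CPs, 21.9, 6.88 and 9.46 in NKMOF-101-[Mn], 4.31, 4.35 and 10.6 in M5@NKMOF-101-[Mn] and 6.23, 4.62 and 7.79 in PS473@NKMOF-101-[Mn]. Ccl9 was measured at 2.96, 1.99 and 1.47 FPKM in PBS, 0.852, 1.02 and 11.1 in Free PS473, 1.02, 5.47 and 2.15 in PS473@CPs, 6.22, 2.09 and 4.60 in NKMOF-101-[Mn], 1.36, 3.21 and 3.73 in M5@NKMOF-101-[Mn] and 1.72, 2.14 and 2.36 in PS473@NKMOF-101-[Mn]. Free PS473 held both the highest and the lowest tumor of all 18 for each of these genes. About 2% of the 50-base words of the Ccl9 transcripts also occur in other genes, against 0% for the other 7 ligands, so some Ccl9 fragments could be shared.

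The receptors were near or below 1 FPKM. Ccr1 was measured at 0.679, 0.960 and 0.612 FPKM in PBS, 0.158, 0.434 and 3.77 in Free PS473, 0.420, 1.19 and 0.815 in PS473@CPs, 1.56, 0.739 and 1.29 in NKMOF-101-[Mn], 0.144, 0.501 and 1.36 in M5@NKMOF-101-[Mn] and 0.687, 0.975 and 0.717 in PS473@NKMOF-101-[Mn]. Ccr2 was measured at 0.399, 0.225 and 0.523 FPKM in PBS, 0.176, 0.164 and 1.07 in Free PS473, 0.522, 0.777 and 0.812 in PS473@CPs, 1.80, 0.722 and 0.499 in NKMOF-101-[Mn], 0.422, 0.318 and 0.444 in M5@NKMOF-101-[Mn] and 0.324, 1.13 and 0.199 in PS473@NKMOF-101-[Mn]. Ccr1 had the widest range of any member, 26.2-fold, set by Free PS473 tumor 3 and M5@NKMOF-101-[Mn] tumor 1. The lowest Ccr1 value rests on about 6.99 fragments. Of the Ccr2 transcripts, 2.27% of the 50-base words occur in other genes.

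Between the groups, 0 of the 8 tested members changed in any comparison, and neither did any other gene: 0 of 12357 genes (0%) reached both an adjusted p under 0.05 and a change beyond 2-fold in each of 9 comparisons of 2 groups, in the contrast of framework groups with the others and in the interaction below (limma on log2(FPKM + 1)). At an unadjusted p under 0.05 there were 73 to 615 genes in the 9 comparisons, and 1 of these calls was a member, Ccl12 in PS473@CPs against PBS. The F test across the 6 groups called 0 genes (0%) at an adjusted p under 0.05, with 246 at an unadjusted p under 0.05, none of them a member. For each member the SD between tumors of a group was larger than the SD of the 6 group means, for example 0.78 against 0.36 for Ccl2 on the log2(FPKM + 1) scale.

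In PS473@NKMOF-101-[Mn] against PBS the member with the smallest p was Ccl12, with a log2 fold change of 0.69 (SE 0.45, 95% interval -0.27 to 1.65, adjusted p = 0.993). The 8 members had log2 fold changes from -0.40 to 0.69 with a median of 0.10, against -0.01 over all genes tested. Ccl12 was the member with the smallest p also in Free PS473 against PBS (0.74, interval -0.22 to 1.70, adjusted p = 1.00), PS473@CPs against PBS (1.23, interval 0.28 to 2.19, adjusted p = 1.00) and NKMOF-101-[Mn] against PBS (0.90, interval -0.06 to 1.86, adjusted p = 1.00). The PS473@CPs value fell to 0.71 without PS473@CPs tumor 2 and to 0.54 without the 7 tumors with a skin score above 3. In M5@NKMOF-101-[Mn] against PBS the smallest p was that of Ccl3 (0.67, interval -0.50 to 1.84, adjusted p = 0.999). These comparisons all rest on the same 3 PBS tumors, 2 of which had a high skin score.

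The empty framework had the highest group mean on the log2(FPKM + 1) scale for 7 members, Ccl2, Ccl6, Ccl7, Ccl8, Ccl9, Ccr1 and Ccr2. This order depends on the scale. In FPKM, PS473@CPs had the highest mean for Ccl2 (17.1, against 15.4 in the empty framework) and Ccl7 (15.7 against 13.3). Free PS473 had it for Ccl9 (4.34 against 4.31) and Ccr1 (1.45 against 1.20). All 8 tested members had a positive log2 fold change in NKMOF-101-[Mn] against PBS, with a median of 0.82, the lowest being Ccl4 at 0.38 (interval -0.73 to 1.49) and the highest Ccl8 (interval -0.87 to 2.89), where 7261 of 12357 genes were positive and the median was 0.03. None passed the test. Its macrophage scores were 3.16 to 3.95, all above those of PBS at 2.48 to 3.14, and the part of this in the members' values was not tested. All 8 had a negative log2 fold change in PS473@NKMOF-101-[Mn] against NKMOF-101-[Mn], from -1.41 to -0.21 with a median of -0.68 (median of all genes -0.04), and the one with the smallest p was Ccl8 (-1.41, SE 0.88, interval -3.29 to 0.47, adjusted p = 0.999). The 2 comparisons share the NKMOF-101-[Mn] tumors. The members also varied largely together between tumors, so a sign common to all 8 does not stand for 8 separate observations.

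Against its other controls, PS473@NKMOF-101-[Mn] had members at log2 fold changes of -0.22 to 0.42 compared with Free PS473 (smallest p for Ccl7, 0.42, interval -0.89 to 1.73, adjusted p = 0.968), -0.77 to 0.12 compared with PS473@CPs (Ccl4, -0.77, interval -1.89 to 0.34, adjusted p = 0.996) and -0.64 to 0.21 compared with M5@NKMOF-101-[Mn] (Ccl4, -0.64, interval -1.75 to 0.47, adjusted p = 1.00). These intervals leave room for changes of more than 2-fold in the negative direction for Ccl4 in both. The Ccl7 value turned to -0.14 without Free PS473 tumor 2.

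**Figure D2:**
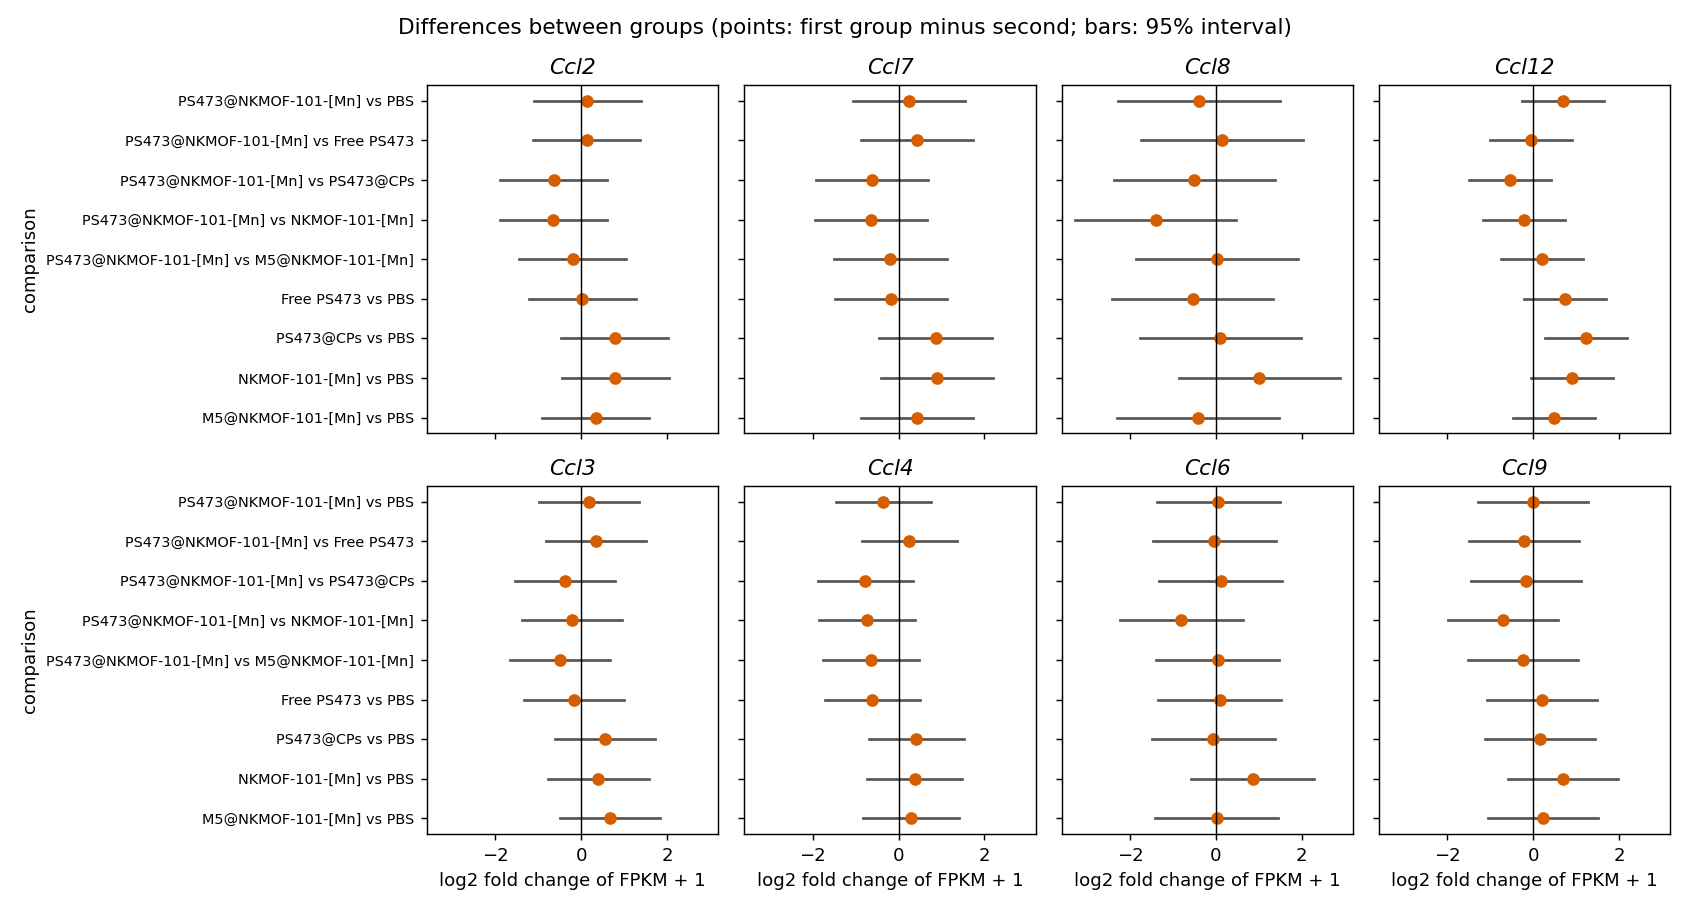
Difference between groups for the 8 tested members (horizontal axes, log2 fold change of FPKM + 1) in 9 comparisons (rows), as points with 95% intervals from limma. All intervals but that of Ccl12 in PS473@CPs against PBS include 0.

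The contrast of the 3 framework groups with the 3 others gave log2 differences of 0.03 to 0.30 for the members (smallest p for Ccl3, 0.29, SE 0.32, interval -0.39 to 0.96, adjusted p = 0.906). PS473@NKMOF-101-[Mn], the empty framework, Free PS473 and PBS form a layout of ribozyme by framework, and the difference of the ribozyme's differences with and without the framework ran from -0.95 to -0.06 over the members. Ccl12 had the smallest p in it (-0.95, SE 0.63, interval -2.30 to 0.40, adjusted p = 1.00). At an unadjusted p under 0.05 there were 564 genes in the first and 331 in the second, with 0 members in either.

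Groups whose 3 tumors all lay on one side of the other's 3 were counted in the same 9 comparisons. In NKMOF-101-[Mn] against PBS these were 3 of the 8 tested members, Ccl7, Ccl8 and Ccl12, against 6.02% of all genes tested. Ccl12 alone stood apart from PBS in M5@NKMOF-101-[Mn] (8.11% of all genes), PS473@CPs (5.11%) and PS473@NKMOF-101-[Mn] (4.66%). In M5@NKMOF-101-[Mn] its lowest value was 1.74 FPKM, beside a highest PBS value of 1.72 FPKM. None of the 8 stood apart in Free PS473 against PBS (4.91%). None did so when PS473@NKMOF-101-[Mn] was set against the empty framework (7.91%), against M5@NKMOF-101-[Mn] (4.48%), against PS473@CPs (4.12%) or against Free PS473 (6.82%).

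The members varied between tumors of the same group, and largely together. Free PS473 tumor 3 was among the highest 3 of 18 tumors for 9 of the 10 members, PS473@CPs tumor 2 and NKMOF-101-[Mn] tumor 1 for 7 each. Free PS473 tumor 1 was among the lowest 3 for all 10, and Free PS473 tumor 2 for 7. Free PS473 thus held 1 tumor at the high end and 2 at the low end for these messengers. Skin scores were 3.22 in Free PS473 tumor 3, 6.46 in PS473@CPs tumor 2 and 5.23 in NKMOF-101-[Mn] tumor 1, but PBS tumors 2 and 3, at 6.03 and 5.01, were among the highest 3 for 0 members.

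**Figure D3:**
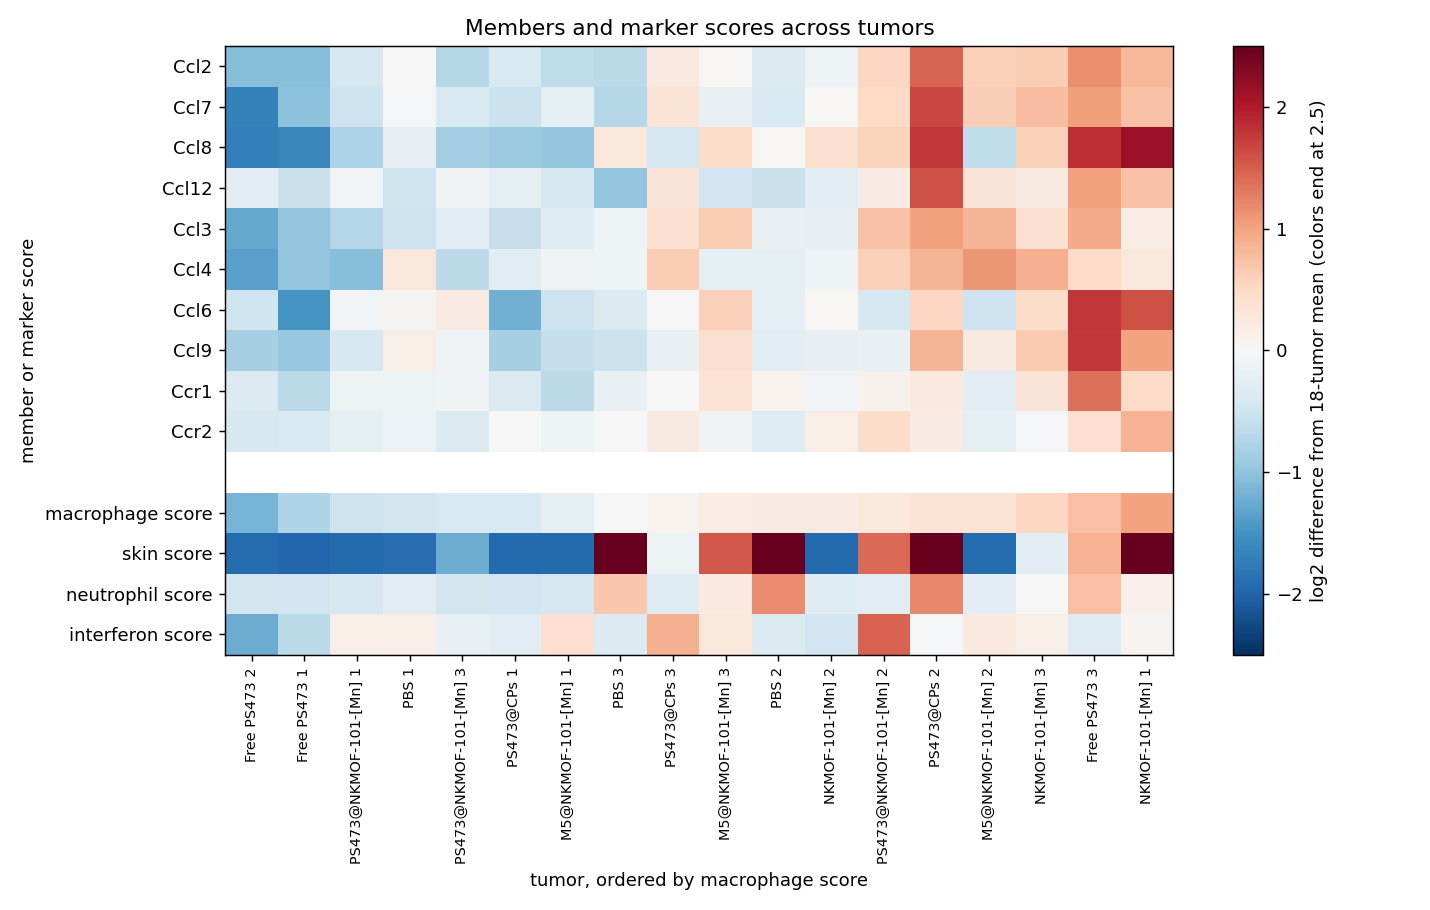
Members (upper rows) and marker scores (lower rows) in the 18 tumors, ordered by macrophage marker score from low to high, as differences in log2 units from the mean over tumors (red above, blue below, colors end at 2.5). Free PS473 tumors 2 and 1 stand at the low end and NKMOF-101-[Mn] tumor 1 and Free PS473 tumor 3 at the high end, while the skin score is uneven along this order.

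Within groups, the members rose with the monocyte and macrophage markers. The slope of log2(FPKM + 1) on the macrophage score, with 1 mean per group in the fit, was positive and passed an adjusted p under 0.05 for 8 of 8 tested members, against 6.94% of all genes tested (858 of 12357, 712 of them positive). The slope was 1.96 for Ccl8 (SE 0.28, adjusted p = 0.00136), 1.30 for Ccl7 (SE 0.23, adjusted p = 0.00385), 1.26 for Ccl3 (SE 0.15, adjusted p = 0.000424), 1.26 for Ccl2 (SE 0.21, adjusted p = 0.00308) and 1.25 for Ccl9 (SE 0.23, adjusted p = 0.0061). It was 1.19 for Ccl6 (SE 0.32, adjusted p = 0.0407), 0.98 for Ccl4 (SE 0.24, adjusted p = 0.0254) and 0.85 for Ccl12 (SE 0.20, adjusted p = 0.0225). The median of the members was 1.25 and that of all genes 0.00. None of the members is in the marker list. With genes down to a mean of 0.1 FPKM included, the receptors passed as well, Ccr1 at 0.85 (SE 0.15, adjusted p = 0.0046) and Ccr2 at 0.48 (SE 0.12, adjusted p = 0.0304), against 7.24% of 18312 genes. With no filter 9 of 10 members passed and Ccl6 did not (adjusted p = 0.0679), against 4.39% of all genes, and without the group term 7 of 8 passed and Ccl12 did not (adjusted p = 0.0954), against 5.66%.

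Other tissue moved with the same score: 7 of 7 fibroblast markers, 7 of 14 skin epithelium markers and both neutrophil markers tested passed with positive slopes. With the skin score as a covariate the members' slopes were 0.81 to 1.51, and 1 of 8 passed, Ccl3 (1.26, adjusted p = 0.0244), while 88 genes in all passed (0.712%). With the neutrophil score as a covariate the slopes were 0.63 to 1.42, and again Ccl3 alone passed (1.20, adjusted p = 0.03), with 102 genes in all (0.825%). Among the 11 tumors with a skin score of at most 3 the slopes were 0.42 to 1.97, with 0 of 8 members and 2 genes in all passing. Without Free PS473 tumor 3, Ccl3 and Ccl8 still passed and the other 6 did not, with slopes of 0.60 to 1.84 for the 8. In that fit 675 genes in all passed (5.46%), beside the 6.94% with all tumors. Further calls were lost when other single tumors were left out: Ccl12 without NKMOF-101-[Mn] tumor 1, Ccl4 without Free PS473 tumor 2, PS473@CPs tumor 1 or PS473@NKMOF-101-[Mn] tumor 2, and Ccl6 in 9 of 18 cases in all (any Free PS473 or NKMOF-101-[Mn] tumor, PS473@CPs tumor 1 or 2, and tumor 1 of M5@NKMOF-101-[Mn]), with adjusted p from 0.0523 to 0.533. The 8 slopes were above 0 in each of these fits.

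**Figure D4:**
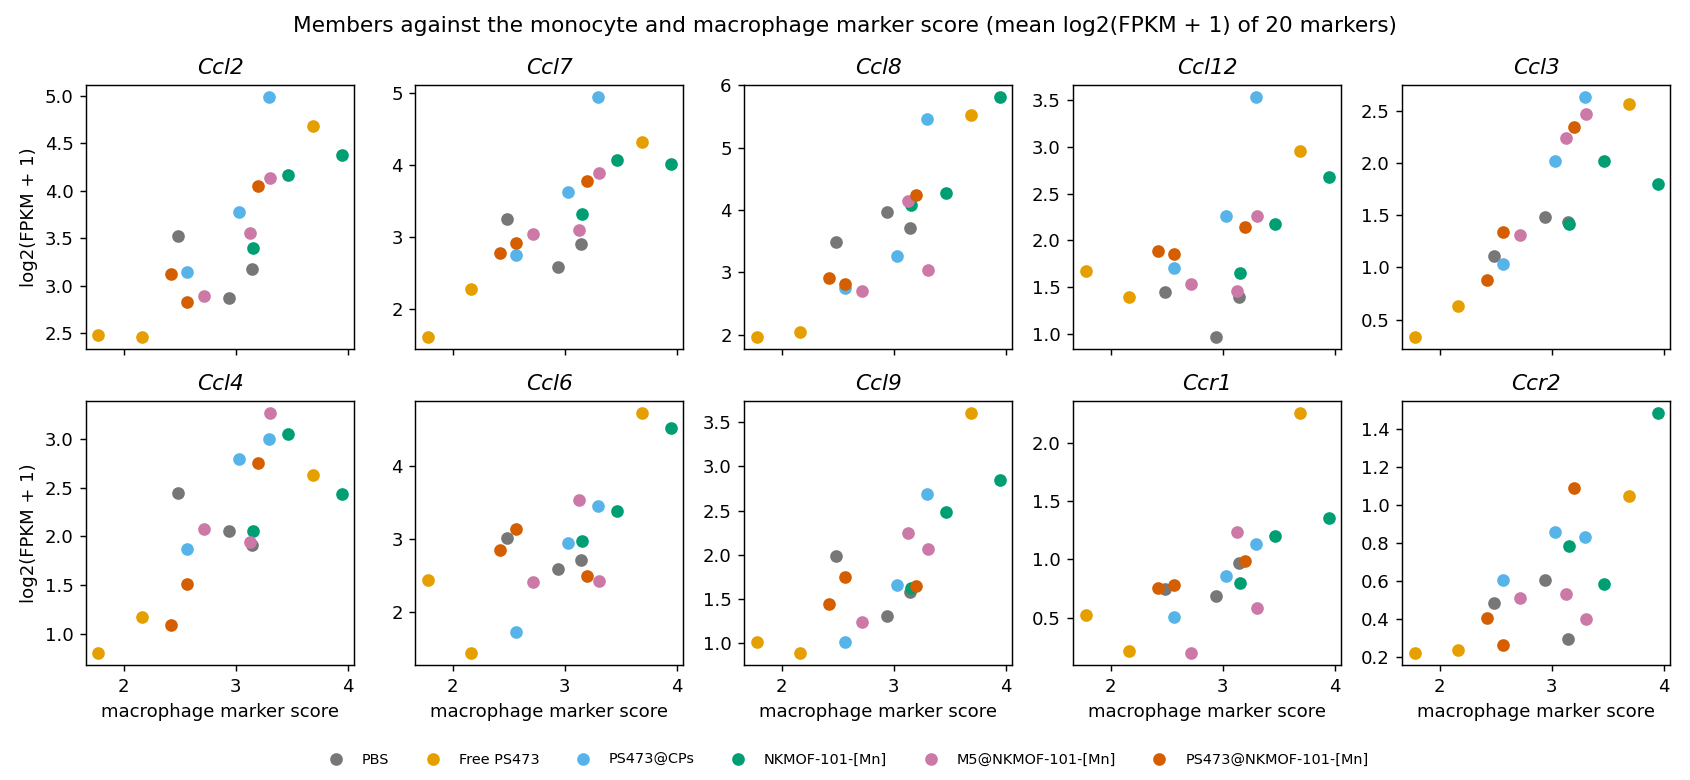
Level of each member (vertical axes, log2(FPKM + 1)) against the tumor's monocyte and macrophage marker score (horizontal axes, mean log2(FPKM + 1) of 20 markers), 1 point per tumor, colored by group. Free PS473 tumors 1 and 2 lie at the left, and NKMOF-101-[Mn] tumor 1 and Free PS473 tumor 3 at the right. Points tend to rise between them, but not evenly. NKMOF-101-[Mn] tumor 1 ranks 8 of 18 for Ccl3 and Ccl4, and PS473@CPs tumor 2 is highest for Ccl2, Ccl3, Ccl7 and Ccl12.

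Interferon-stimulated genes, a set induced by type I and type II interferons, were followed by none of the members at the adjusted threshold. The within-group slope on their score was positive for all 8 but passed for 0 of 8, against 1.04% of all genes tested (129 of 12357, all positive). It was largest for Ccl4, at 0.94 (SE 0.27, adjusted p = 0.232), followed by Ccl8 at 0.89 (SE 0.58, adjusted p = 0.715) and Ccl7 at 0.83 (SE 0.38, adjusted p = 0.546). At an unadjusted p under 0.05 there were 4 of the 8 members, Ccl2, Ccl3, Ccl4 and Ccl7, against 1103 of all 12357 genes tested. On the neutrophil score 2 of 8 members passed, against 6.58% of all genes (813 of 12357): Ccl8 at 1.61 (SE 0.32, adjusted p = 0.00479) and Ccl3 at 0.87 (SE 0.24, adjusted p = 0.0402). With a pseudocount of 0.1 in place of 1, 6 of 8 passed, all but Ccl4 and Ccl6, against 7.25% of all genes, and with genes down to a mean of 0.1 FPKM 5 of 10 passed, against 9.86%. Only Ccl8 passed with no filter (6.67% of all genes) or without the group term (8.22%). Without PBS tumor 1 the members passing were 7 of 8, all but Ccl4, against 11.8% of all genes. With the skin score as a covariate 0 of 8 passed, against 0.299%. Ccl8 lost its call without PS473@CPs tumor 2 (adjusted p = 0.0511), and Ccl3 in 11 of the 18 fits that left out 1 tumor (adjusted p up to 0.194). Whether the slopes of a member differ between the 3 scores was not tested.

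**Figure D5:**
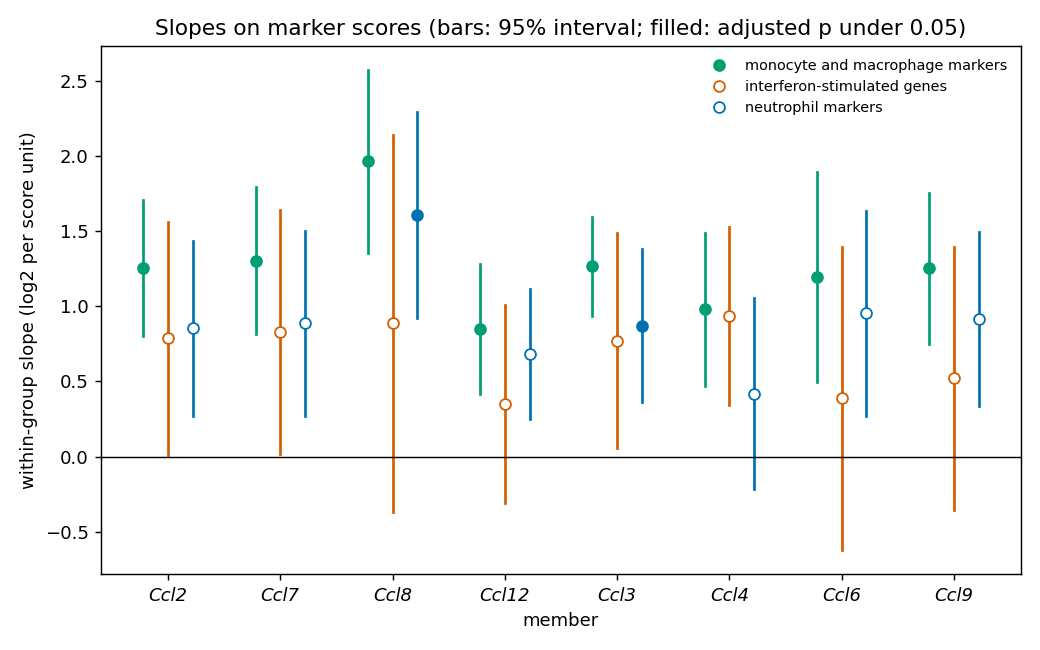
Within-group slope of each tested member (vertical axis, log2 units per unit of score) on the macrophage, interferon and neutrophil marker scores, with 95% intervals from limma, filled where the adjusted p is under 0.05. All 8 macrophage slopes are filled, no interferon slope is, and among the neutrophil slopes those of Ccl8 and Ccl3 are.

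The likeness of the members over the 18 tumors was described by Pearson's r of log2(FPKM + 1), and all tumors share the same measurement and depth correction. The 45 pairs of members had r from 0.38 (Ccl4 and Ccl6) to 0.96 (Ccl2 and Ccl7), with a median of 0.73. Ccl2 and Ccl7, adjacent on the chromosome, were each other's most alike gene among all genes tested, and Ccl12 was most like Ccl2 (0.86) and Ccl7 (0.82). Ccl6 was most like Ccl9 (0.91). The receptors, below the filter, were compared with the other members only. Among these, Ccr1 was most like the pair Ccl6 and Ccl9, at 0.90 with Ccl9 and 0.88 with Ccl6, and Ccr2 was most like Ccl8 (0.81).

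Beyond the members, Ccl2 was most like Ms4a6d (0.90) and Cxcl9 (0.89), a chemokine induced by interferon gamma, and Ccl7 like Tmsb4x (0.92) and Cd52 (0.90). Ccl3 was most like Cxcl9 (0.93), Plek (0.92) and Bcl2a1d (0.92), and Ccl4 like Fcer1g (0.90), a signalling chain of Fc receptors, Cd52 (0.90) and Slamf9 (0.89). Ccl8 was most like Entpd1 (0.93), Csf2rb (0.91) and Pla2g7 (0.90). Ccl6 was most like Lyz2 (0.87), the lysozyme of myeloid cells, and Gm51686 (0.84) after Ccl9. Ccl9 was most like E330034G19Rik (0.91) and, after Ccl6, Cd36 (0.90), and Ccl12, after Ccl2 and Ccl7, was most like Crip1 (0.80).

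The other CC chemokines and receptors, a list of 24 genes, were mostly too low to test: 6 had a mean of at least 1 FPKM. Ccl5, which attracts T cells and monocytes, was the most abundant named gene among them at 14.0 FPKM, and Ccl11, Ccl22 and Ackr1 had means of 0.748, 0.493 and 0.135 FPKM. On the macrophage score 2 of the 6 rose, among them Ccrl2 (slope 0.46, SE 0.12, adjusted p = 0.0303), while Ccl5 was at 0.93 (SE 0.27, adjusted p = 0.054). None of the 6 passed the test between groups.

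Of the genes that carry the signal below chemokine receptors, 22 of 26 were tested and 11 rose with the macrophage score, with a median slope of 0.31 over the list, beside the 6.94% of all genes that passed in either direction. They included Rac2 (0.74, adjusted p = 0.0123), Vav1 (0.60, adjusted p = 0.00488) and Dock2 (0.58, adjusted p = 0.0063), which drive actin remodelling in leukocytes. Of 24 NF-kB and inflammatory inducer genes, 18 were tested and 7 rose (median slope 0.29), among them Nfkbia (1.25, adjusted p = 0.00288) and Tnfaip3 (adjusted p = 0.00304), both feedback inhibitors of NF-kB, and Myd88 (0.69, adjusted p = 0.0009), an adaptor of Toll-like receptors. Of 16 other monocyte attractants and growth factors, 10 were tested and 3 rose (median slope 0.60), the complement receptors C3ar1 (0.89, adjusted p = 0.000688) and C5ar1 (0.59, adjusted p = 0.00221) and the cytokine receptor chain Csf2rb (0.75, adjusted p = 0.00136). The neutrophil score, for which 6.58% of all genes passed, gave 1 of 22, 6 of 18 and 4 of 10 genes rising in these lists. Nfkbia (1.22, adjusted p = 3.47e-05), Tnfaip3 (0.94, adjusted p = 0.000299), Myd88 (0.57, adjusted p = 0.00294) and Csf2rb (0.65, adjusted p = 0.00115) rose with it too. Slopes of these lists and of the other CC genes are given only for the fit with all tumors and no covariate. On the macrophage score 858 genes passed in that fit, 88 with the skin score as a covariate and 102 with the neutrophil score as a covariate.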

How the data were processed

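Poly(A) RNA of 18 B16F10 tumors was sequenced. The authors deposited FPKM values for each gene and tumor, with 1 gene length per gene. The submitters' processing notes name build GRCm39, and the aligner and the counter are not given in the sources used here. The fragments per tumor (17195000 to 28372000) were recovered from the steps between low values. Since only 47.1% to 51.3% of the low values gave whole fragments (within 0.02), no count model was used. The titles of 3 samples name the framework NKMOF-102, where the treatment text lists only NKMOF-101, and they were taken as PS473@NKMOF-101-[Mn].

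Values were transformed to log2(FPKM + 1), which understates changes of low genes. Genes averaging 1 FPKM or more, 12357 in number, entered limma 3.58.1 under R 4.3.3 (all 18 tumors, 1 mean per group, prior variance trended on expression), with Benjamini-Hochberg adjustment over all of them. A gene was called in a comparison where its adjusted p was under 0.05 and its change exceeded 2-fold, and in F tests and slopes by the adjusted p alone. The procedure was tested on simulated data. Figures and summaries used Python 3.11.15. Neighbouring levels were compared with permutation tests of 100000 resamples.

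The members and the gene lists were chosen with earlier results of these data known. Text names the members, per comparison the member of smallest p, per tested member the 3 most alike genes, and of the other lists called genes, or for CC genes also 5 set by name. Values of 2 listed genes are not reported here. Alternatives were no filter, a filter at 0.1 FPKM, a pseudocount of 0.1, quantile normalization, no trend, a replicate block, the skin score as a covariate, compared groups alone, slopes without a group term or over expressed markers, and leaving out each tumor. The fits without 7 skin-rich tumors and with the neutrophil score as a covariate were chosen after seeing the data.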

Additional observations from a re-analysis of the deposited data

How the results depend on the processing

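The 8 macrophage slopes stayed above 0 in all fits, and whether they passed the test changed with the covariates, the group term, the filter and the tumors used. The genes passing numbered 858 in the reported fit, 1372 with no filter, 1325 with a filter at 0.1 FPKM, 88 with the skin score as a covariate, 102 with the neutrophil score as a covariate and 2 without the skin-rich tumors (Clec4a1 and Fcgr4), where fewer tumors are left. For the interferon score the reported 129 became 206 without the group term and 0 without the skin-rich tumors, and for the neutrophil score 813 became 2087 with no filter, 1806 with a filter at 0.1 FPKM, 37 with the skin score and 0 without the skin-rich tumors. Leaving out each tumor gave 441 to 1340 genes for the macrophage score (fewest without Free PS473 tumor 2, most without PBS tumor 1), 36 to 142 for the interferon score (fewest without tumor 2 of PS473@NKMOF-101-[Mn]) and 476 to 1463 for the neutrophil score (fewest without PS473@CPs tumor 2, most without PBS tumor 1). Counts of 0 between groups held except for 1 gene in PS473@CPs against PBS with the compared groups alone (Gm4786) or, over tumors left out, 0 to 1 (ND4L, without PS473@CPs tumor 3), and 4 genes in the F test with no filter (Gm12790, Gm23749, Gm30953 and Serpina1a), none a member. Ccl7 in PS473@NKMOF-101-[Mn] against Free PS473 ranged from -0.14 to 1.22 over tumors left out. Causes were not tested beyond these fits.

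The replicate numbers showed no sign of pairing the tumors, and their meaning is not given in the sources used here. Over 45 pairs with the same number in different groups, the deviations from group means correlated at -0.73 to 0.72 (median -0.02). Over 90 pairs with other numbers they correlated at -0.69 to 0.72 (median -0.005). Of the 18 tumors, 4 correlated best with their own number. With a replicate block, 583 genes and 6 of 8 members passed on the macrophage score, 123 genes and 0 members on the interferon score, 637 genes and 1 member on the neutrophil score, and 0 genes between groups. Depth limits Ccl3, Ccr1, Ccl12 and Ccl4 most: their lowest tumors rest on about 5.24, 6.99, 9.99 and 12.5 fragments.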
